A study of Homo sapiens with 10 samples.

Results

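The genes described here are 9 of the 58302 genes in each expression table, namely the matrix metalloproteinase genes MMP1, MMP2, MMP7, MMP9 and MMP14, the tissue inhibitor of metalloproteinase genes TIMP1, TIMP2 and TIMP3, and PLAU, the gene of urokinase-type plasminogen activator. They were chosen by name as a functional group, each matched to 1 Ensembl identifier, and their values in RNA-Seq of 10 libraries are given below. The study asked how PSPC1, a paraspeckle protein, and PTK6, a tyrosine kinase that binds it, act in tumor progression of hepatocellular carcinoma. RNA-Seq of human cell lines was among its assays, beside protein, cell, mouse and patient tissue experiments. The constructs were compared in SK-hep1 cells, which are mock control, PSPC1 alone, PSPC1 with PTK6 (PSPC1/PTK6), PSPC1 with a tyrosine-to-phenylalanine mutation (PSPC1-Y523F), and the same mutant with PTK6 (PSPC1-Y523F/PTK6). Mahlavu cells carried mock control, a C-terminal fragment of PSPC1 (PSPC1-CT131), or a construct with a mutated nuclear localization sequence. The last is called Mut-NLS-CT131 here after the study's methods, while its label names an NLS mutation of PSPC1 without saying whether the protein is full length or the C-terminal fragment. Huh-7 cells were left untreated or were given 10 ng/ml hepatocyte growth factor (HGF) for 48 h.

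Each condition is 1 library of 1 established cell line, so conditions could not be tested against each other and p-values are left out. Every interval printed below is a 95% counting interval that covers the sampling of reads only, and not the spread between cultures. Constructs were forced into SK-hep1 and Mahlavu cells, so by their labels the construct libraries describe overexpression, beside any PSPC1 and PTK6 of the line's own. Levels are given as FPKM (fragments per kilobase of gene at a common library depth, as deposited). A fold is the ratio of deposited FPKM of 2 libraries, and a log2 fold change is the difference of log2(quantile-normalized FPKM + 1). A fold is not corrected for a shift of all genes between 2 libraries. An interval of a fold that includes no difference therefore speaks of the deposited reads only, and is not a test of no difference. A gene entered a comparison where its mean over both libraries reached 1 FPKM, and a log2 fold change of at least 1 in size was counted as at least 2-fold.

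Matrix metalloproteinases are zinc enzymes that cut collagens, gelatin and other matrix proteins and are made as inactive precursors. MMP14 sits in the plasma membrane and, together with TIMP2, forms the complex in which secreted pro-MMP2 is activated. MMP2 and MMP9 are the gelatinases, MMP1 is an interstitial collagenase, and MMP7 (matrilysin) is a small epithelial enzyme without a hemopexin domain. TIMP1, TIMP2 and TIMP3 block the active site of metalloproteinases, though not each of them blocks every enzyme equally well. TIMP3 is held in the matrix. Urokinase, bound to its receptor PLAUR, turns plasminogen into plasmin, a broad protease. In liver, these genes are best known from wound repair, from fibrosis and from the invasive edge of carcinomas.

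The 5 metalloproteinase members share the zinc-binding site that defines the family. Its coding sequence is shown first because detected and undetected members share this enzyme center. MMP2 and MMP14 differed in opposite directions between SK-hep1 and Mahlavu, while MMP1 and MMP7 stayed undetected. Capitals mark the bases that the search held fixed, which are the first bases of the codons for histidine, glutamate and glycine at the spacing of the zinc-binding motif. The search ran in frame over GENCODE 29 coding sequences on GRCh38, and a match was found in 85 of 19588 coding genes (0.434%).
MMP1 (chr11:102795549-102795581, minus strand, coding, exon 5 of 10): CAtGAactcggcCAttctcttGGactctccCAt
MMP2 (chr16:55491827-55491859, plus strand, coding, exon 8 of 13): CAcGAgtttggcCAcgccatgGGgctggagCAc
MMP7 (chr11:102523343-102523375, minus strand, coding, exon 5 of 6): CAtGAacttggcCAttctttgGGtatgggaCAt
MMP9 (chr20:46012453-46012485, plus strand, coding, exon 8 of 13): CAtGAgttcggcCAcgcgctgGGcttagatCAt
MMP14 (chr14:22843283-22843315, plus strand, coding, exon 5 of 10): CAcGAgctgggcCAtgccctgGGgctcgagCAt
Of these 33 bases, MMP2 and MMP14 share 27 and MMP1 and MMP2 share 18, the most and the fewest of any pair. In PLAU, a serine protease, the stretch around the active-site serine was searched in the same way with the leading bases of the codons for glycine, aspartate, glycine, glycine and proline, which 138 of 19588 coding genes (0.705%) hold.
PLAU (chr10:73916389-73916406, plus strand, coding, exon 11 of 11): GGaGActcaGGgGGaCCc

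Promoter sequence from RefSeq (GRCh38.p14) was available for 5 of the 9 members, MMP7, MMP14, TIMP1, TIMP3 and PLAU. The 250 bases before the start are shown for the undetected MMP7, for MMP14, which was higher in each SK-hep1 library than in the other lines, and for TIMP3, the member with the widest range among inhibitors. The AP-1 motif was searched as TGAGTCA on both strands and is found in the same window of 4.20% of 35116 promoters. The PEA3/ETS motif was searched as AGGAAG on both strands and is found in 28.7% of them. The TATA box was searched as TATAAA on both strands and is found in 10.7%. Matches are in capitals, on the other strand where the reverse complement is printed.
MMP7 (chr11:102530748-102530997, minus strand): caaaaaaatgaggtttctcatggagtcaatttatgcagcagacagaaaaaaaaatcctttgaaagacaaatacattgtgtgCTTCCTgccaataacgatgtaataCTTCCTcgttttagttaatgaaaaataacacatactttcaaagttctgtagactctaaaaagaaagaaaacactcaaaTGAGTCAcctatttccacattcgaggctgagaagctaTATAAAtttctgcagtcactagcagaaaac
MMP14 (chr14:22836335-22836584, plus strand): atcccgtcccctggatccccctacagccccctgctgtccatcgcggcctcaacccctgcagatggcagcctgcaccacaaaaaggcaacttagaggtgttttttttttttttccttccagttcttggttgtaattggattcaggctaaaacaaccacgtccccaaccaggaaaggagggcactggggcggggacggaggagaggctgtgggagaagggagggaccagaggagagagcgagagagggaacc
TIMP3 (chr22:32801455-32801704, plus strand): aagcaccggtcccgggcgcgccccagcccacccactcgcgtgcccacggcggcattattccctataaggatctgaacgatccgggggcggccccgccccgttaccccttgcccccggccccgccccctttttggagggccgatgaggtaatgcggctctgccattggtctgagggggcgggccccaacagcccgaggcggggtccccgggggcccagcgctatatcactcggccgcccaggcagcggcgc
The MMP7 window holds 1 AP-1 match from 67 to 61 bases before the start, 2 PEA3/ETS matches on the other strand and 1 TATA match from 30 to 25 bases before the start, yet MMP7 was at or under 3 reads in each library. No match was found in the windows of MMP14 and TIMP3, which says only that these letters are not in those bases. A PEA3/ETS match was found for TIMP1 (87 to 82 bases before the start) and in 1 of the 2 windows of PLAU (221 to 216 bases before the start), which are not printed because 123 and 250 of their 250 bases lie in annotated exons. The windows differ in base composition, with 33.6% G and C in MMP7, 56.8% in MMP14 and 72.4% in TIMP3, against a median of 58.0% over the 35116 promoters.

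The libraries held 19085682 to 24278662 reads on genes in the SK-hep1 and Mahlavu lines and 15245935 and 16374128 in Huh-7. PSPC1 itself had 0 reads in the SK-hep1 mock library, 7.01 FPKM with PSPC1 and 26.4 with PSPC1/PTK6, and 2.28 and 70.9 with the Y523F mutant without and with PTK6, and PTK6 was at 4.79 FPKM in mock, 5.69 and 4.09 without the PTK6 construct, and 16.7 and 10.5 with it. In Mahlavu, PSPC1 was lower than in mock (47.3 FPKM) in both construct libraries. It was at 30.8 FPKM with the label of the C-terminal fragment and 22.5 FPKM with that of the NLS mutation. PSPC1 reads thus showed no rise with either label. They were counted over the whole gene, so reads of a fragment and of the line's own PSPC1 are not told apart. The paper reports less PSPC1 protein with PSPC1-CT131, but not with Mut-NLS-CT131. Of 10 hepatocyte markers, 10 reached 1 FPKM in Huh-7 and 1 (SERPINA1) in SK-hep1 and Mahlavu, where ALB, TTR, FGB and TF were at 0 in all 8 libraries and the summed level was 16.3 to 42.4 and 8.13 to 10.4 FPKM. Of 8 endothelial markers, 0 reached 1 FPKM in SK-hep1 and Mahlavu, and CD3E was at 0 and PTPRC at or under 0.0520 FPKM there, with leukocyte sums of 6.32 to 18.8 FPKM in SK-hep1, 9.88 to 13.1 in Mahlavu and 433 to 447 in Huh-7, where LYZ made up most of the sum. Of 8 fibroblast markers, 4 to 5 reached 1 FPKM in SK-hep1 (sum 117 to 362), 3 to 4 in Mahlavu (40.0 to 55.7) and 5 in Huh-7 (173 to 186), and of 5 epithelial markers 3, 2 to 3 and 5 did, with sums of 5414 to 13877, 606 to 1582 and 1414 to 1433 FPKM. On FPKM as deposited, without quantile normalization, the median log2 fold change over all genes lay between -0.24 (PSPC1-CT131 against mock) and 0.20 (PSPC1/PTK6 against PSPC1), so the log2 fold changes below are on the quantile-normalized scale unless said otherwise.

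MMP2 and MMP14 showed opposite preferences among the lines. MMP2, the secreted gelatinase of mesenchymal cells, was at 516, 1087 and 812 FPKM in Mahlavu mock, PSPC1-CT131 and Mut-NLS-CT131, from 20360, 37457 and 26963 reads. In SK-hep1 it had 3 reads in mock (0.0795 FPKM), 2 with PSPC1 (0.0568), 6 with PSPC1/PTK6 (0.144), 40 with PSPC1-Y523F (1.09) and 6 with PSPC1-Y523F/PTK6 (0.142). In Huh-7 it had 1 read in the untreated library and 0 after HGF. The 40 reads in the library with PSPC1-Y523F were 13.7 times the share in mock (interval 4.37 to 69.3), and this gene stayed under the mean of 1 FPKM in each SK-hep1 comparison.

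MMP14, the membrane-bound enzyme that activates pro-MMP2, was read in all 10 libraries. In SK-hep1 mock stood at 391 FPKM, PSPC1 at 706, PSPC1/PTK6 at 485, PSPC1-Y523F at 675 and PSPC1-Y523F/PTK6 at 354. In Mahlavu it was at 64.3, 74.2 and 109 FPKM in mock, PSPC1-CT131 and Mut-NLS-CT131, and in Huh-7 at 104 untreated and 107 after HGF. The SK-hep1 libraries with PSPC1 or PSPC1-Y523F alone were the highest, and no Mahlavu or Huh-7 library came near the lowest SK-hep1 library.

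MMP9, the inducible gelatinase, had the widest fold range within SK-hep1 of the 6 members that reached a mean of 1 FPKM there. Mock stood at 11.5 FPKM, PSPC1 at 2.16, PSPC1/PTK6 at 28.9, PSPC1-Y523F at 7.37 and PSPC1-Y523F/PTK6 at 4.94, so the lowest and the highest library both carried wild-type PSPC1. In Mahlavu it was at 6.47, 12.1 and 16.2 FPKM in mock, PSPC1-CT131 and Mut-NLS-CT131. Both Huh-7 libraries had 0 reads of MMP9, which allows up to 0.0784 FPKM untreated and 0.0842 FPKM after HGF (the level of 3 reads).

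MMP1 and MMP7 were not detectable at this depth. MMP1 had at most 2 reads in any library and 0 reads in 6 of the 10, and MMP7 had 3 reads in SK-hep1 mock, 1 in Mahlavu mock and 0 in the other 8. In the libraries with 0 reads of MMP7, the level of 3 reads was 0.105 to 0.168 FPKM, depending on depth. No fold is given for either gene.

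TIMP1, the secreted inhibitor that pairs with pro-MMP9, was abundant in SK-hep1 and Mahlavu. In SK-hep1, mock stood at 483 FPKM, PSPC1 at 481, PSPC1/PTK6 at 544, PSPC1-Y523F at 528 and PSPC1-Y523F/PTK6 at 686, and Mahlavu was at 269, 498 and 406 FPKM in Mahlavu mock, PSPC1-CT131 and Mut-NLS-CT131. Huh-7 was far lower, at 21.0 FPKM untreated and 27.6 after HGF. TIMP2, which pairs with pro-MMP2, had the narrowest fold range of the detected members within SK-hep1 and within Mahlavu, at 134 to 186 FPKM over the 5 SK-hep1 libraries and 137 to 141 over the 3 Mahlavu libraries, and was far lower in Huh-7, at 2.76 and 3.64 FPKM.

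TIMP3, the matrix-bound inhibitor, varied most among the 3 inhibitors. In SK-hep1, mock stood at 30.2 FPKM, PSPC1 at 52.7, PSPC1/PTK6 at 205, PSPC1-Y523F at 80.0 and PSPC1-Y523F/PTK6 at 143, so that mock was the lowest and both libraries with PTK6 the highest. In Mahlavu it was at 62.3, 93.9 and 35.2 FPKM in mock, PSPC1-CT131 and Mut-NLS-CT131, and in Huh-7 at 20.4 untreated and 23.9 after HGF.

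PLAU, the plasminogen activator, was highest in SK-hep1. There mock stood at 431 FPKM, PSPC1 at 372, PSPC1/PTK6 at 983, PSPC1-Y523F at 450 and PSPC1-Y523F/PTK6 at 285. In Mahlavu it was at 32.5, 52.2 and 68.7 FPKM in mock, PSPC1-CT131 and Mut-NLS-CT131, and in Huh-7 at 12.3 untreated and 13.8 after HGF. The library with PSPC1/PTK6 stood well above the other 4 of its line, and the Mahlavu and Huh-7 libraries did not reach the lowest of them.

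**Figure D1:**
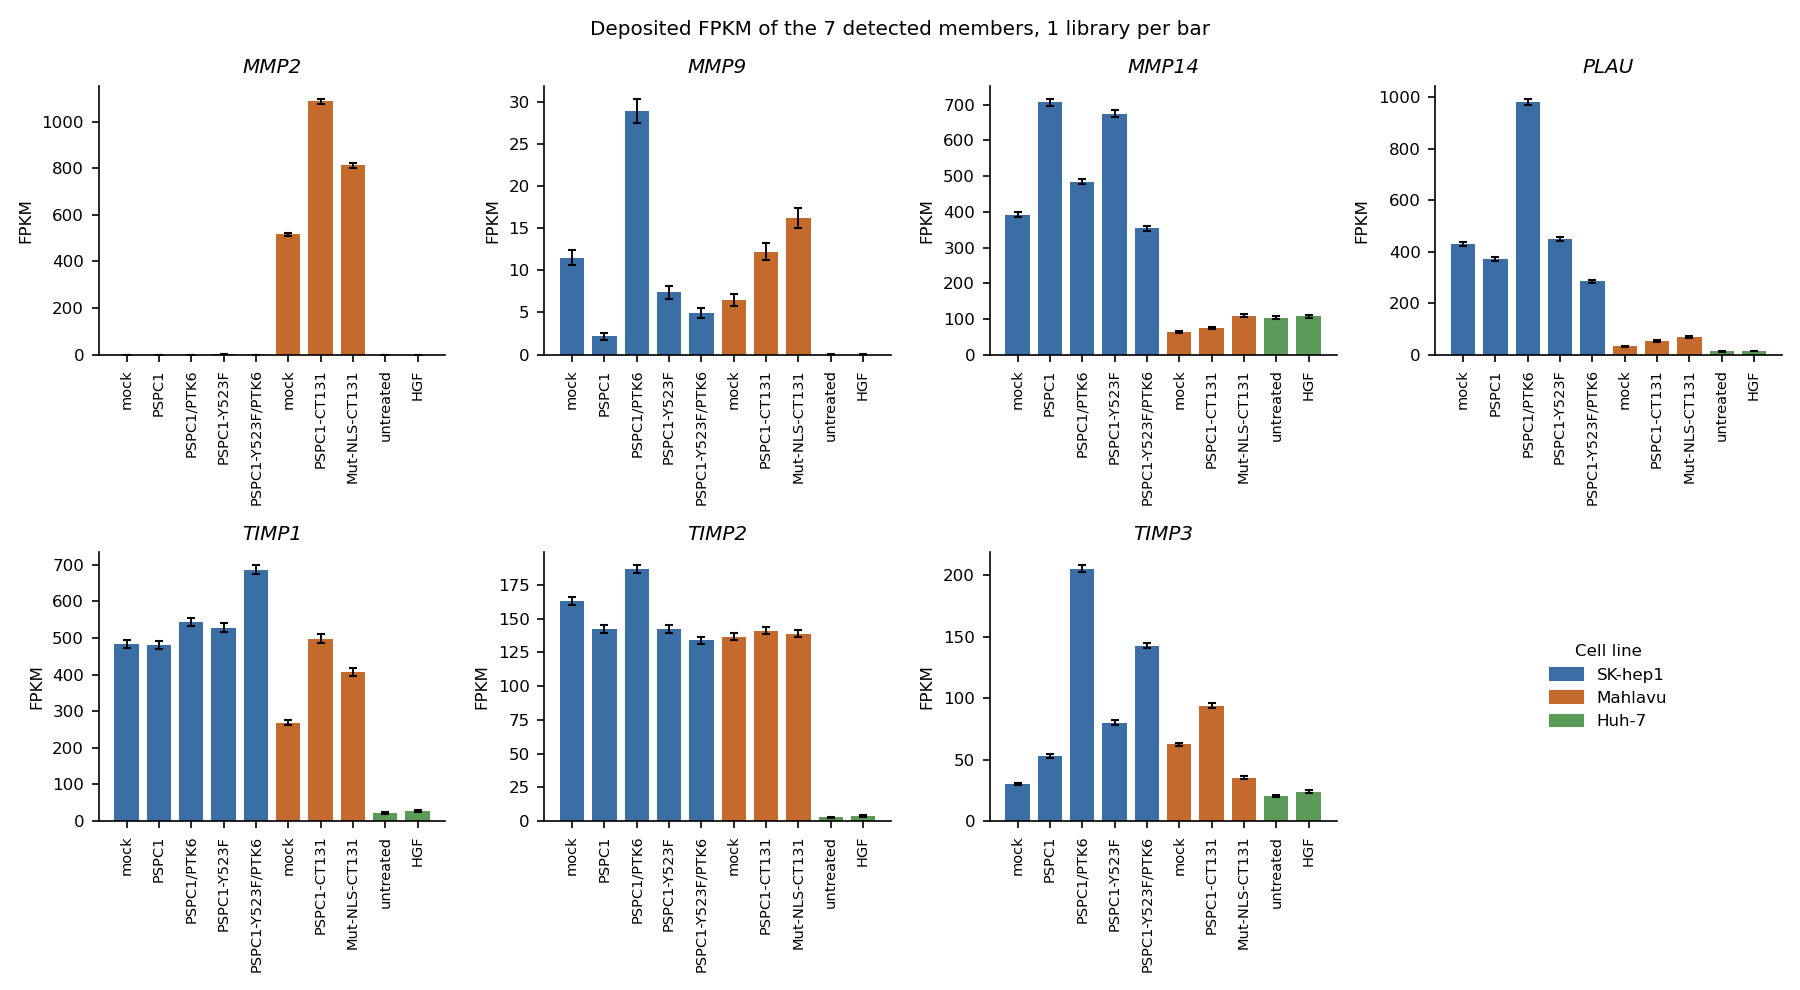
Deposited FPKM (vertical axis, from 0, own scale per gene) of the 7 detected members in each of the 10 libraries (horizontal axis), colored by cell line, with bars of 95% Wilson counting intervals and 1 library per bar. MMP2 stands at 516 to 1087 FPKM in Mahlavu and at most 1.09 elsewhere, MMP14 and PLAU are highest in SK-hep1, and MMP9, PLAU and TIMP3 peak in PSPC1/PTK6 at 28.9, 983 and 205 FPKM.

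The files list the 9 genes on chromosomes 10, 11, 14, 16, 17, 20, 22 and X of GRCh38, with MMP1 (chr11:102789920-102798160) and MMP7 (chr11:102520508-102530753) as the only pair on 1 chromosome. Whether the counting used strand is not stated, so reads of overlapping genes on the opposite strand may not be fully separated from those of the members, and these genes had few reads. SYN3 at TIMP3 had at most 16 reads per library, SYN1 at TIMP1 at most 24, SLC12A5-AS1 at MMP9 at most 23 and C10orf55 at PLAU at most 70, over the 8 SK-hep1 and Mahlavu libraries. The highest library of TIMP3 had 22572 reads, that of TIMP1 11825, that of MMP9 1612 and that of PLAU 29819.

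Between SK-hep1 and Mahlavu, 4 of the 7 members with a mean of at least 1 FPKM did not overlap on the quantile-normalized scale, beside 48.4% of 12902 genes, so the count of members is near that of all genes. MMP14 and PLAU were above Mahlavu in each SK-hep1 library with a gap of at least 2-fold, which 8.18% of genes had, and the ratio of medians was 6.53 for MMP14 and 8.25 for PLAU. MMP2 was below Mahlavu in each SK-hep1 library with such a gap, which 7.16% of genes had, at 812 FPKM against 0.142 FPKM as medians of 3 and 5 libraries. TIMP2 was above in each SK-hep1 library only on that scale, since its deposited FPKM overlapped (134 to 186 and 137 to 141). TIMP1, TIMP3 and MMP9 overlapped. On the deposited FPKM, 2204 genes were above and 3922 below in SK-hep1, in place of 3315 and 2926. Huh-7 was normalized on its own and is set beside the other lines without a test. Its deposited TIMP1, TIMP2, TIMP3 and PLAU were below the lowest of the other 8 libraries, while MMP14 (104 and 107 FPKM) lay within the Mahlavu range.

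In SK-hep1, 1 of the 6 members compared was at least 2-fold different with PSPC1 against mock, beside 5.57% of 12410 genes in either direction (3.38% higher and 2.19% lower). That member was MMP9, lower by 1.90 on the log2 scale, 0.188 times mock (0.151 to 0.233). MMP14 was 1.80 times mock (1.76 to 1.85) and TIMP3 1.74 times (1.67 to 1.82), both under 2-fold. PLAU was 0.864 times mock, TIMP2 0.873 times and TIMP1 0.997 times (0.965 to 1.03), the last with an interval that includes no difference. The median log2 fold change of the 6 members was -0.060, and that of all genes -0.026.

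With PSPC1/PTK6, 3 of the 6 were at least 2-fold higher than in mock and 0 lower, beside 8.41% of 12436 genes in either direction, 5.09% higher and 3.32% lower. The genes counted were 633 higher and 413 lower, and 1001 and 240 on the deposited FPKM. TIMP3 had the largest difference, 6.79 times mock (6.54 to 7.06) and a log2 fold change of 2.66. MMP9 was 2.52 times mock (2.29 to 2.77) and PLAU 2.28 times (2.23 to 2.33). With a pseudocount of 5 the log2 fold change of MMP9 was 0.89, under the threshold, in place of 1.07. MMP14 was 1.24 times, TIMP1 1.13 times and TIMP2 1.14 times, so the log2 fold changes of the 6 were above 0, except that TIMP1 stood at -0.0017 with TMM scaling. Their median was 0.72 against -0.036 for all genes.

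With PSPC1-Y523F against mock, TIMP3 was the 1 of 6 members at least 2-fold different, beside 5.29% of 12382 genes (2.83% higher and 2.46% lower), at 2.65 times mock (2.54 to 2.76). MMP14 was 1.72 times mock (1.68 to 1.77), close to its 1.80 with PSPC1, and MMP9 was 0.642 times (0.562 to 0.733). PLAU, at 1.05 times, and TIMP1, at 1.09 times, were near mock. With PSPC1-Y523F/PTK6 against mock, TIMP3 was again the 1 of 6, beside 5.03% of 12412 genes, 3.44% higher and 1.59% lower (427 and 197 genes, and 404 and 311 on FPKM scaled to a common sum), at 4.72 times mock (4.54 to 4.91). TIMP1 was 1.42 times mock (1.38 to 1.46), PLAU 0.662 times (0.644 to 0.680) and MMP14 0.905 times. MMP9 was 0.430 times mock (0.372 to 0.497) on deposited FPKM, with a log2 fold change of -0.90 on the scale used for counting. The 4 comparisons share the mock library, so they are set side by side and not combined. Across genes, the Spearman rho of log2 fold change with G and C content was 0.18 with PSPC1 and -0.086 with PSPC1/PTK6. It was 0.25 with both PSPC1-Y523F and PSPC1-Y523F/PTK6. The log2 fold change of MMP14 lay between 0.76 and 0.89 with PSPC1 over all settings, including removal of length and G and C content. It lay between 0.72 and 0.87 with PSPC1-Y523F. The median of the 6 members was 0.071 for PSPC1-Y523F and -0.18 for PSPC1-Y523F/PTK6, against -0.0063 and -0.040 for all genes.

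**Figure D2:**
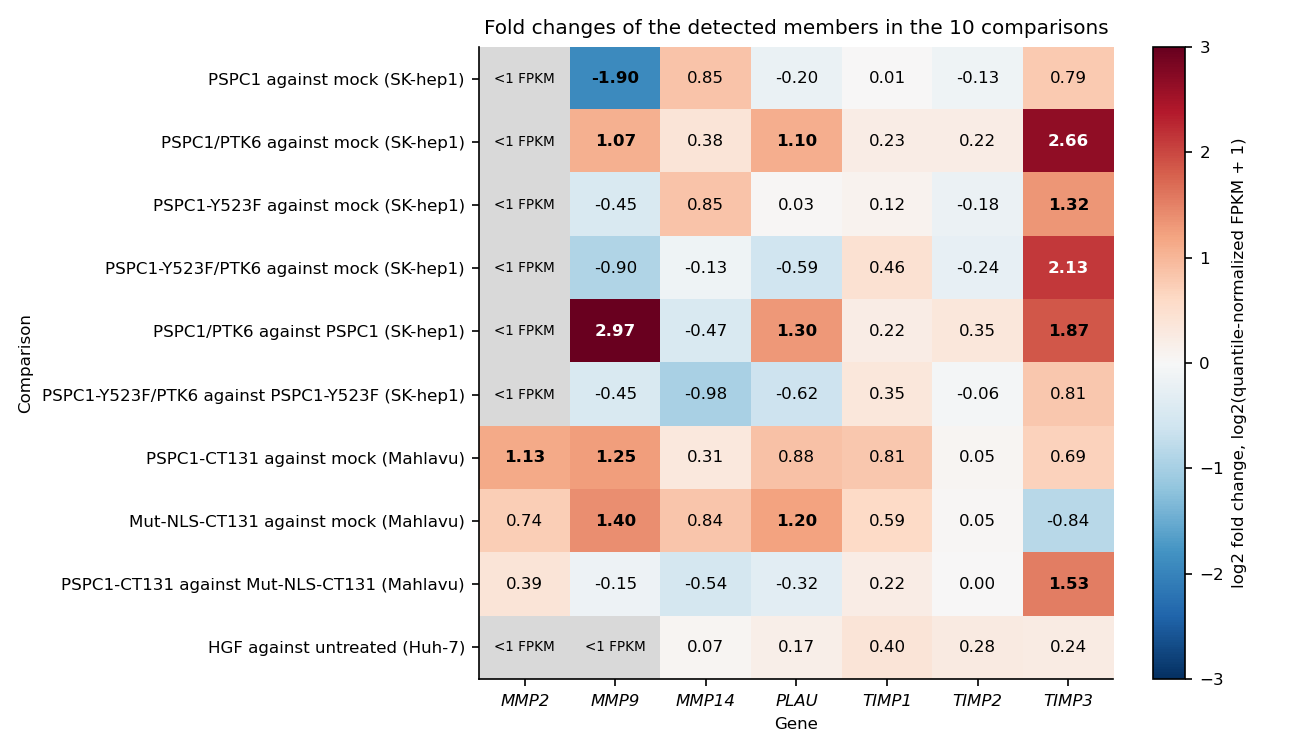
Log2 fold changes of log2(quantile-normalized FPKM + 1) for the 7 detected members (columns) in the 10 comparisons (rows), each between 2 libraries, with values of at least 1 in size in bold and gray cells where the mean was under 1 FPKM. TIMP3 is at 0.79, 2.66, 1.32 and 2.13 in the 4 comparisons with the SK-hep1 mock library, MMP9 changes sign between -1.90 and 1.07, and the HGF row stays between 0.07 and 0.40.

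The PTK6 construct was then compared within each form of PSPC1. Added to PSPC1, 3 of the 6 members were at least 2-fold higher and 0 lower, beside 4.96% of 12391 genes in either direction, 3.09% higher and 1.87% lower (383 and 232 genes, and 662 and 127 on the deposited FPKM). MMP9 was 13.4 times higher (11.0 to 16.5) with a log2 fold change of 2.97, TIMP3 3.90 times (3.78 to 4.02) and PLAU 2.64 times (2.58 to 2.70). TIMP2 was 1.31 times and TIMP1 1.13 times (a log2 fold change of 0.22, and of -0.041 with TMM scaling), and MMP14 was lower, at 0.686 times (0.671 to 0.701). The median of the 6 was 0.83 on the log2 scale, against -0.021 for all genes.

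Added to PSPC1-Y523F, 0 of the 6 members were at least 2-fold different, beside 5.98% of 12398 genes, 3.78% higher and 2.2% lower (469 and 273 genes, and 454 and 401 on FPKM scaled to a common sum). MMP14 was closest to the threshold, at 0.525 times (0.512 to 0.537) and a log2 fold change of -0.98. TIMP3 was 1.78 times (1.74 to 1.83) and TIMP1 1.30 times (1.26 to 1.34). MMP9 was 0.670 times (0.571 to 0.785) and PLAU 0.633 times (0.616 to 0.651), the direction opposite to that with wild-type PSPC1. TIMP2 was 0.941 times (0.916 to 0.968), with a log2 fold change of -0.056, and of 0.029 with TMM scaling. The median of the 6 was -0.25, against -0.032 for all genes.

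The libraries with both constructs also differed in how much of them was read, with PSPC1 at 26.4 FPKM in PSPC1/PTK6 and 70.9 in PSPC1-Y523F/PTK6, and PTK6 at 16.7 and 10.5. The part of these levels in the values above was not tested. Across genes, the Spearman rho of log2 fold change with G and C content was -0.31 with PTK6 added to PSPC1. With PTK6 added to PSPC1-Y523F it was -0.022. Over all settings run, including removal of length and G and C content, MMP9 lay between 2.10 and 3.34 with PSPC1. It lay between -0.55 and -0.31 with PSPC1-Y523F. For PLAU these ranges were 1.18 to 1.40 and -0.70 to -0.54. Of 11931 genes compared in both forms, 2.28% went in opposite directions with at least 2-fold in one of them, and MMP9 and PLAU were 2 of these. The difference between both log2 fold changes was larger for MMP9 (3.42) than for 99.8% of the genes, and for PLAU (1.92) larger than for 98.8%. For TIMP3 and MMP14, which kept 1 direction in both forms, the values were larger than for 94.4% and 72.8%.

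**Figure D3:**
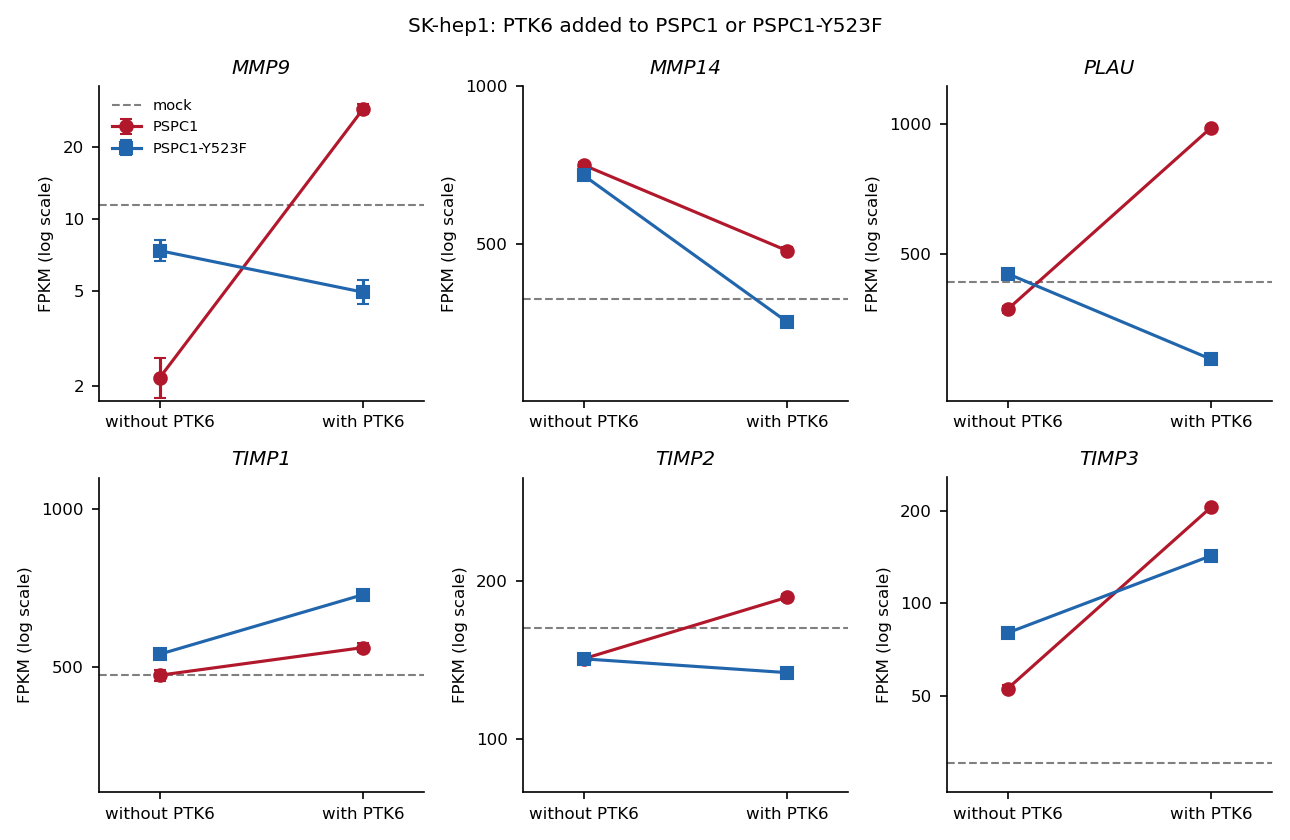
FPKM (log axis, own scale per gene) of 6 members in SK-hep1 libraries without and with PTK6, for PSPC1 (red circles) and PSPC1-Y523F (blue squares), with bars of 95% Wilson counting intervals where larger than the symbol and the mock library as a dashed line. MMP9 goes from 2.16 to 28.9 FPKM and PLAU from 372 to 983 with PSPC1, and from 7.37 to 4.94 and 450 to 285 with PSPC1-Y523F, while TIMP3 goes up and MMP14 down with both.

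**Figure D4:**
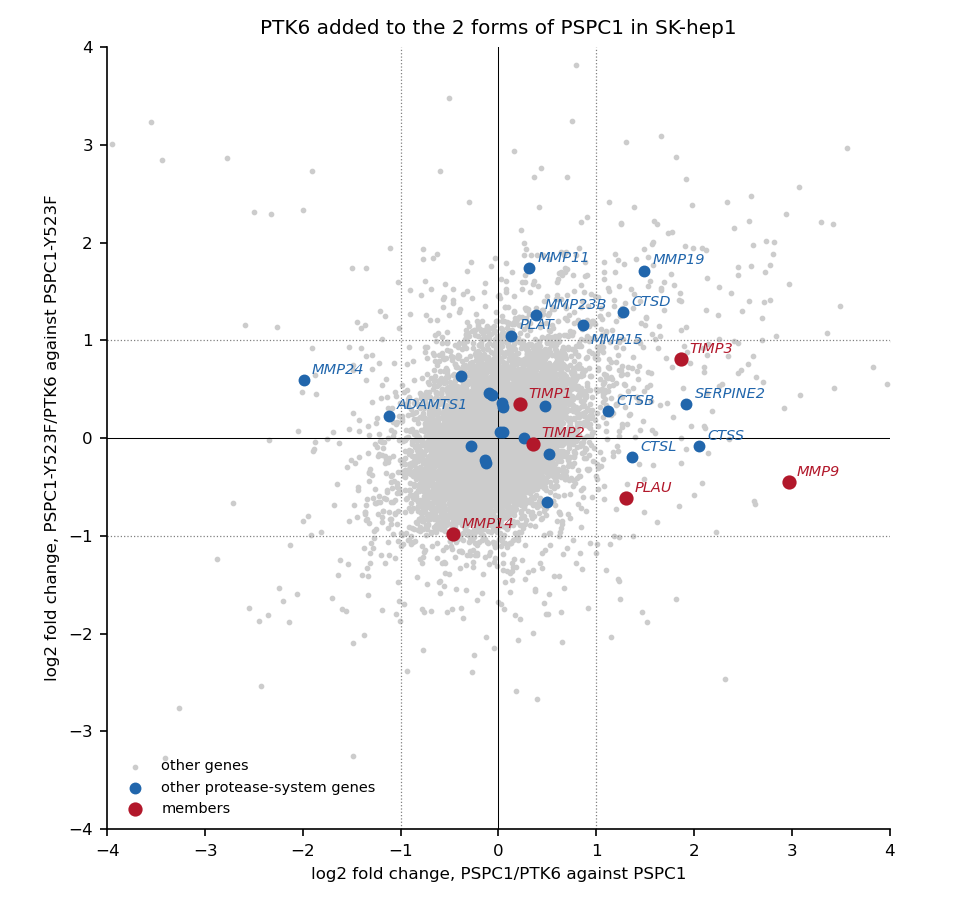
Log2 fold change with PTK6 added to PSPC1 (horizontal axis) against that with PTK6 added to PSPC1-Y523F (vertical axis) for 11931 genes, of which 21 lie outside the plotted range, with 6 members in red, other genes of the protease system in blue and dotted lines at 2-fold. MMP9 and PLAU lie in the lower right part, at 2.97 and -0.45 and at 1.30 and -0.62, TIMP3 lies in the upper right and MMP14 in the lower left.

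In Mahlavu, all 7 members compared were higher in the library labelled as the C-terminal fragment (PSPC1-CT131) than in mock. So were 18 of 24 other protease-system genes and 10 of 13 regulator genes described below, while 6 and 3 were lower. The median log2 fold change of all genes was 0.014. Of the 7 members, 2 (MMP2 and MMP9) were at least 2-fold higher, beside 6.33% of 12415 genes in either direction, 3.17% higher and 3.16% lower (394 and 392 genes, and 195 and 1001 on the deposited FPKM). MMP2 was 2.11 times mock (2.07 to 2.14). MMP9 was 1.88 times (1.64 to 2.15) on deposited FPKM and 1.25 higher on the log2 scale, so its place among the 2 rests on the normalization. TIMP1 was 1.85 times mock (1.78 to 1.92), PLAU 1.61 times (1.48 to 1.75), TIMP3 1.51 times (1.46 to 1.56) and MMP14 1.15 times (1.08 to 1.23). TIMP2 was 1.03 times (1.00 to 1.06). The log2 fold changes of this comparison followed the G and C content of transcripts, with a Spearman rho of 0.57 across 12402 genes, which share both libraries and are not replicates. MMP9, with 62.4% G and C, lies above 90.6% of genes, MMP14 above 80.9%, TIMP1 above 77.7% and MMP2 above 73.4%. With length and G and C content removed by a fit, MMP2 was at 0.86, MMP14 at -0.021 and TIMP2 at -0.14, and 0 of the 7 were counted.

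In the library labelled as the NLS mutation (Mut-NLS-CT131), 2 of 7 members (MMP9 and PLAU) were at least 2-fold higher than in mock, beside 6.42% of 12425 genes, 3.16% higher and 3.26% lower (393 and 405 genes, and 287 and 602 on the deposited FPKM). MMP9 was 2.50 times mock (2.20 to 2.85) and PLAU 2.12 times (1.95 to 2.29). MMP14 was 1.70 times (1.60 to 1.80), MMP2 1.57 times (1.55 to 1.60) and TIMP1 1.51 times (1.45 to 1.57). TIMP3 was the 1 member in the other direction, at 0.565 times (0.541 to 0.590), and TIMP2 was 1.02 times, with an interval (0.988 to 1.05) that includes no difference. On deposited FPKM the median log2 fold change of all genes was -0.095 here. Over the settings run, the log2 fold change of TIMP2 lay between 0.024 and 0.18. In this comparison rho with G and C content was -0.10. The median of the 7 members was 0.81 with PSPC1-CT131 and 0.74 with Mut-NLS-CT131, against 0.014 and 0.0033 for all genes, and both comparisons share the mock library.

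PSPC1-CT131 set directly against Mut-NLS-CT131 gave 1 of 7 members, beside 8.82% of 12453 genes, 4.23% higher and 4.59% lower (527 and 571 genes, and 302 and 966 on the deposited FPKM). That member was TIMP3, 2.67 times higher (2.56 to 2.78) with PSPC1-CT131. MMP2 was 1.34 times higher (1.32 to 1.36) and TIMP1 1.23 times (though -0.033 on the log2 scale with length and G and C content removed), while MMP9 was 0.750 times (0.671 to 0.839), PLAU 0.760 times and MMP14 0.679 times (0.640 to 0.721). The rho with G and C content was 0.57 here too. TIMP3, whose longest transcript has 48.7% G and C, near the middle of all genes, stayed between 1.39 and 1.56 in this comparison under each alternative that was run.

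In Huh-7, 0 of 5 members were at least 2-fold different after HGF, beside 0.82% of 14262 genes (0.428% higher and 0.393% lower). The 5 were slightly higher, TIMP1 at 1.32 times (1.11 to 1.57), TIMP2 at 1.32 times (1.05 to 1.65) and TIMP3 at 1.17 times (1.09 to 1.26). Their median log2 fold change was 0.24, against -0.0016 for all genes. Of 25 other protease-system genes described below, 14 were higher and 11 lower. For MMP14, at 1.03 times (0.973 to 1.10), and PLAU, at 1.13 times (0.947 to 1.35), the interval includes no difference. The reads behind TIMP2 (147 and 180), TIMP1 (244 and 299) and PLAU (255 and 268) were few, and the intervals are correspondingly wide. MET, the receptor of HGF, was at 50.0 and 51.8 FPKM in these libraries.

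The order of the members in a library depends on the gene length behind FPKM. The length used for the deposited FPKM was shorter than the length column for 6 members, for example 1267 against 3732 bases for MMP14 and 1740 against 3741 for MMP2, and equal for MMP1, MMP9 and TIMP3. On deposited FPKM, MMP14 ranked first in PSPC1 and PSPC1-Y523F, TIMP1 in mock and PSPC1-Y523F/PTK6, and PLAU in PSPC1/PTK6, and MMP2 ranked first in all 3 Mahlavu libraries and MMP14 in both Huh-7 libraries. With the length column, TIMP1 came first in PSPC1 and PSPC1-Y523F as well, and the first rank in the other 8 libraries was unchanged.

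Summed per library, the 3 TIMPs were at 676 to 963 FPKM in SK-hep1 and the 5 MMPs at 359 to 708 FPKM. The ratio of TIMP to MMP sums there was 1.68 for mock, 0.954 for PSPC1, 1.82 for PSPC1/PTK6, 1.10 for PSPC1-Y523F and 2.68 for PSPC1-Y523F/PTK6, highest with both libraries that carried PTK6. In Mahlavu it was 0.798, 0.625 and 0.619 in mock, PSPC1-CT131 and Mut-NLS-CT131, where MMP2 made up most of the MMP sum. In Huh-7 it was 0.426 and 0.515. With the length column the ratios were 3.38, 2.03, 3.74, 2.31 and 5.64 in the same order in SK-hep1, 1.34, 0.999 and 0.979 in Mahlavu and 1.04 and 1.24 in Huh-7, so the order within SK-hep1 stayed and values of 1 have no meaning of their own. The sums add transcripts without regard to which inhibitor acts on which enzyme. The ratio is therefore not a measure of the balance between inhibitors and enzymes.

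**Figure D5:**
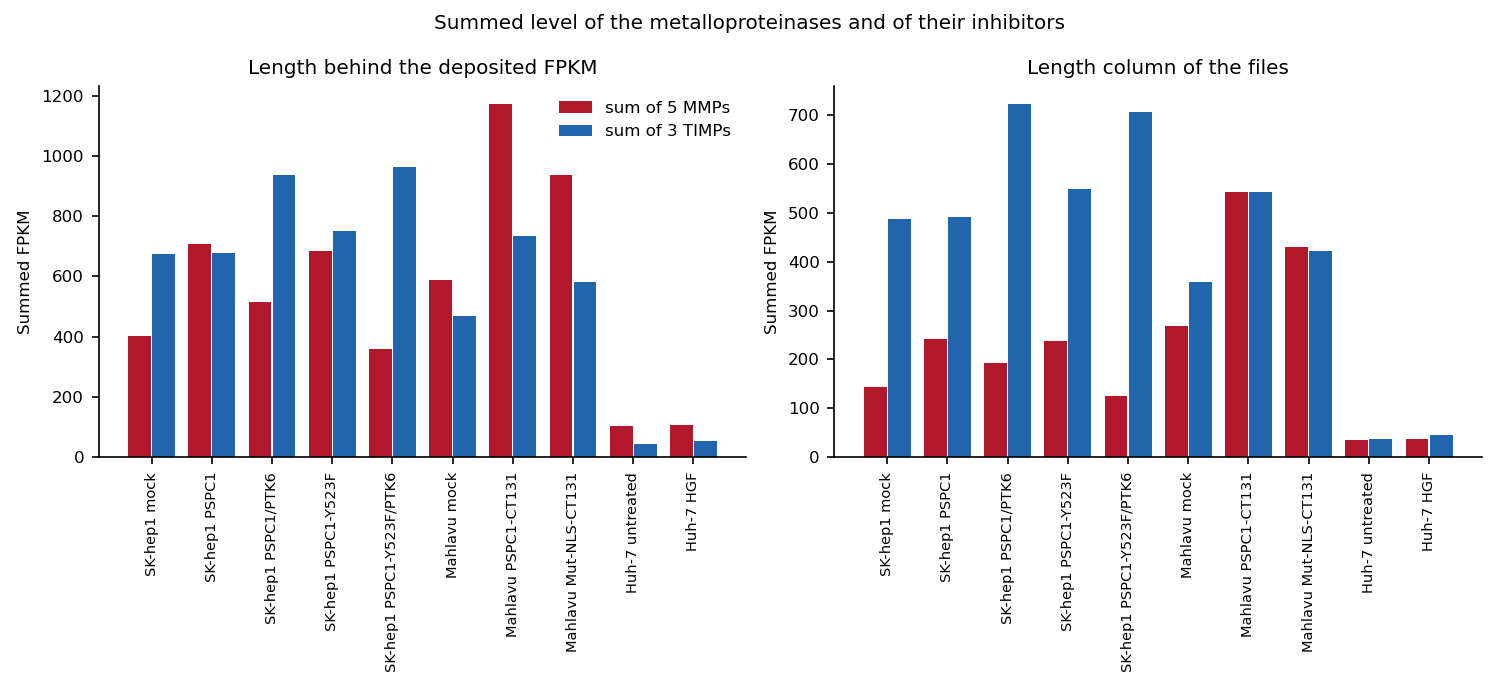
Summed FPKM of the 5 MMPs (red) and the 3 TIMPs (blue) in each library, computed with the length behind the deposited FPKM (left) and with the length column of the files (right), 1 library per pair of bars. The TIMP sum exceeds the MMP sum most in PSPC1-Y523F/PTK6 with either length, by a ratio of 2.68 or 5.64, and the MMP sum is largest in Mahlavu PSPC1-CT131.

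Within SK-hep1, the spread of a member from lowest to highest library was wider than for 99.0% of 12449 genes for MMP9, 98.5% for TIMP3 and 94.0% for PLAU, on the log2 scale. It was wider than for 76.3% for MMP14, and for TIMP1 and TIMP2 wider than for 25.6% and 25.0%, so these inhibitors were among the steadier genes. Of all these genes, 22.7% spanned at least 2-fold and 3.69% at least 4-fold. After the mean of each line was taken out, PLAU and MMP9 had a Pearson r of 0.84 over the 8 SK-hep1 and Mahlavu libraries, PLAU and TIMP2 of 0.82, and MMP9 and TIMP2 of 0.75. These were the highest among the member pairs. The other pairs lay between -0.25 (MMP2 and TIMP2) and 0.52 (MMP2 and TIMP1), some of them near 0. Over 12902 genes the pattern most like that of TIMP3 was ARSJ (r = 0.988), that of MMP9 HOMER2 (0.963), that of MMP2 LRRC57 (0.989), that of MMP14 PI4KAP1 (0.963), that of TIMP2 GBP4 (0.981) and that of TIMP1 an unnamed gene, ENSG00000230615 (0.968). The second in each case were PPP1R21, BMAL2, IMPDH1, RN7SL2, EMP1 and ALS2CL in the same order, and CRLF2 was among the closest to PLAU (0.954). With 8 points and the highest of so many genes taken, such values describe the libraries only.

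Another 44 genes of the protease system, being the other MMPs, TIMP4, plasminogen system genes, ADAM and ADAMTS proteases and cathepsins, were read the same way, and their counts stand beside the shares of all genes given above for each comparison. With PSPC1 against mock, 1 of 26 compared was at least 2-fold higher and 3 lower. MMP11, a stromal MMP, was higher at 2.71 against 0.317 FPKM, and MMP19, the protease inhibitor gene SERPINE2 and the lysosomal protease CTSL were lower, CTSL at 69.2 against 221 FPKM. With PSPC1/PTK6 against mock, 2 of 26 were higher (MMP11 at 4.99 FPKM and CTSS at 6.32 against 1.00 FPKM) and 2 lower (MMP24 at 1.31 against 4.30 FPKM and ADAMTS1 at 8.23 against 17.1 FPKM). With PSPC1-Y523F, 0 of 24 were higher and 2 lower (MMP19 at 0.917 against 4.62 FPKM and CTSL at 101 FPKM), and with PSPC1-Y523F/PTK6 1 of 26 was higher (MMP11 at 2.90 FPKM) and 1 lower (CTSL at 84.2 FPKM).

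With PTK6 added to PSPC1, 6 of 26 of these genes were at least 2-fold higher and 2 lower, beside 3.09% and 1.87% of all genes. The 3 largest differences were CTSS, SERPINE2 (9.84 to 47.1 FPKM) and MMP19 (0.985 to 5.89 FPKM), and the lower genes were MMP24 (6.30 to 1.31 FPKM) and ADAMTS1. With PTK6 added to PSPC1-Y523F, 6 of 26 were higher and 0 lower, beside 3.78% and 2.2% of all genes, led by MMP11 (0.325 to 2.90 FPKM), MMP19 (0.917 to 4.99 FPKM) and CTSD (55.1 to 141 FPKM), and the activator gene PLAT was also counted (81.7 to 177 FPKM). MMP19 and CTSD were counted with both forms.

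PLAU was read beside the other genes of plasminogen activation. PLAUR, the urokinase receptor, was at 85.3 FPKM in SK-hep1 mock, 111 with PSPC1, 158 with PSPC1/PTK6, 170 with PSPC1-Y523F and 103 with PSPC1-Y523F/PTK6. The ratio of PLAU to PLAUR was 5.05, 3.35, 6.21, 2.65 and 2.76 in the same order, highest with PSPC1/PTK6. PLG, the gene of plasminogen, had 0 reads in all SK-hep1 and Mahlavu libraries and stood at 174 and 264 FPKM in untreated and HGF-treated Huh-7, where SERPINF2, the plasmin inhibitor gene, was at 679 and 794 FPKM. In Mahlavu, 2 of 24 genes were higher with PSPC1-CT131 (among them TIMP4 at 3.86 against 0.801 FPKM) and 3 of 24 with Mut-NLS-CT131 (PLAUR at 108 against 52.4 FPKM, CTSL at 482 against 206 FPKM and CTSS at 74.6 against 30.7 FPKM), with 0 lower in both. Against Mut-NLS-CT131, PSPC1-CT131 had 1 of 25 higher (SERPINB2 at 3.21 against 0.799 FPKM) and CTSL and CTSS lower. After HGF, 0 of 25 were at least 2-fold different.

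Of 15 genes of AP-1, ETS and NF-kB factors, families known to bind promoters of MMPs and PLAU, 0 to 4 differed at least 2-fold in a comparison. ETV4 was lower with PSPC1 (36.1 against 84.1 FPKM). With PSPC1/PTK6, JUNB was higher (120 against 58.7 FPKM) and FOS lower (2.01 against 4.42 FPKM). ELF3 was lower with PSPC1-Y523F (0.125 against 1.40 FPKM) and FOS with PSPC1-Y523F/PTK6 (1.28 FPKM). ELF3 was higher with PTK6 added to PSPC1 (0.716 to 3.80 FPKM) and to PSPC1-Y523F (to 2.47 FPKM), and FOS was lower with PTK6 added to PSPC1. In Mahlavu ETV4 was higher with PSPC1-CT131 (10.9 against 4.52 FPKM) and Mut-NLS-CT131 (11.7 FPKM), and FOSL1, JUN, JUNB and JUND were higher with PSPC1-CT131 than with Mut-NLS-CT131, FOSL1 at 106 against 47.8 FPKM. These are 4 of 13 compared, beside 4.23% of all genes higher, in a comparison whose log2 fold changes had a rho of 0.57 with G and C content, and the part of that content was not tested for these genes. After HGF, 0 of 13 were at least 2-fold different.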

How the data were processed

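RNA-Seq of 10 libraries, 1 per condition, was analyzed. For SK-hep1 and Mahlavu the authors deposited raw read counts per gene and FPKM, and for Huh-7 FPKM only. Per the submitters' processing notes, TopHat2 2.0, HTSeq 0.6.1, edgeR and GRCh38.p12 were used. The labels describe poly-A selection and the paper rRNA depletion and another build, and the coordinates printed are those of the files. The FPKM the authors deposited could be rebuilt from reads, library totals and 1 length per gene, so they hold no quantile normalization. For Huh-7 the totals and reads were recovered from the FPKM, with 100% of values whole within 0.01. Lines of text without values (8 per table) were left out, and 57532 of 58302 identifiers had a symbol.

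FPKM were quantile normalized over the 8 SK-hep1 and Mahlavu libraries and over the 2 Huh-7 libraries, a pseudocount of 1 was added, and a gene was kept where its mean over both libraries reached 1 FPKM. Level intervals are Wilson and fold intervals exact conditional binomial, both at 95% and for counting error only, since reads carry no molecular identifiers. The members, the lists of other genes and markers, and the comparisons were chosen with earlier results of these data known. The members were all named, as were the other pathway genes at least 2-fold different (at most the 3 largest each way, and PLAT, PLAUR, PLG and SERPINF2 chosen after their values were seen), the regulators at least 2-fold different, and for each member the 2 genes most like it, except that some of these genes are not reported here. Alternative settings were other pseudocounts, other or no normalization, TMM-scaled counts, no filter on low values, and removal of length and G and C content by a quadratic fit. Levels were also computed with the length column of the files. The calculations were tested on simulated data. Python 3.11.15, scipy 1.17.1, R 4.3.3 and edgeR 4.0.16 (TMM factors only) were used.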

Additional observations from a re-analysis of the deposited data

Results flagged for a closer look

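Of the 6 members compared, 3 went in opposite directions when PTK6 was added to PSPC1 and when it was added to PSPC1-Y523F in SK-hep1. This stands beside 39.2% of 11931 genes, so the count of members is near the share of all genes. With 1 library per condition the difference was not tested. MMP9 had a log2 fold change of 2.97 with PSPC1 and -0.45 with PSPC1-Y523F, a difference of 3.42. PLAU had 1.30 and -0.62, a difference of 1.92. TIMP2 had 0.35 and -0.056, a difference of 0.41, with neither value at 2-fold. With TMM scaling TIMP2 was at 0.029 with PSPC1-Y523F, so that its directions were no longer opposite.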

How the results depend on the processing

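No paired analysis was possible because each condition has 1 library, and no library could be left out of a comparison. Of 547 member values under 8 other settings and 1 chosen after seeing the data (length and G and C content removed), 536 kept their direction, and the other 11 were at most 0.31 in size as reported. Of 96 counts of members, 84 stayed within 1.5 times. With PSPC1-Y523F against mock the count of 1 became 2 with no filter on low FPKM (MMP2 added). With PSPC1-Y523F/PTK6 against mock it became 2 (MMP9 added) on FPKM as deposited, on FPKM scaled to a common sum and with length and G and C content removed. With PTK6 added to PSPC1-Y523F the count of 0 became 1 with quantile normalization within each cell line (MMP14) and 1 with no filter (MMP2). With PSPC1-CT131 against mock the count of 2 became 1 with a pseudocount of 5, on FPKM as deposited and scaled to a common sum (MMP2 each time), 1 with normalization within each line (MMP9), and 0 with length and G and C content removed. With Mut-NLS-CT131 against mock it became 1 with a pseudocount of 5 (PLAU). With that pseudocount the count of 3 in PSPC1/PTK6 against mock became 2 (MMP9 lost). The cause was not tested for these. TIMP3 and PLAU kept each of their calls in all alternatives, with TIMP3 between 2.52 and 2.76 in PSPC1/PTK6 against mock. The count not overlapping between SK-hep1 and Mahlavu was 3 to 5 in place of 4. Depth limits MMP1, MMP7 and, outside Mahlavu, MMP2.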
